A study of Mus musculus with 12 samples.

Results

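The 10 genes of prostaglandin biology described here over the estrous cycle of the mouse uterus are Ptgs1, Ptgs2, Ptges, Ptgis, Ptgds, Hpgd, Ptger2, Ptger3, Ptger4 and Ptgfr. They were taken by symbol from a fixed list that names synthases, an inactivating enzyme and receptors, and all 10 were found among the 35896 genes of the tables. The samples were 12 whole uteri of wild-type Swiss Webster females aged 8 to 12 weeks, with no treatment or transgene named in the labels, and 3 uteri were placed by the authors in each stage (proestrus, estrus, metestrus, diestrus). Samples are named here by stage and the number in their title, which runs over 1, 2 and 3 in proestrus, over 3, 4 and 5 in estrus and in diestrus, and over 5, 6 and 7 in metestrus. Polyadenylated RNA was read near its 3' end (3' TagSeq), and levels are given in CPM (counts scaled to a common library size with edgeR's TMM factors) with the SD over 3 uteri. The labels do not say how an animal's stage was determined, and in whole tissue a lower level can mean fewer cells of a type or less RNA per cell, which cannot be told apart here.

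Prostaglandins are lipid signals made where they act. Phospholipases release arachidonic acid from membranes, the cyclooxygenases encoded by Ptgs1 and Ptgs2 turn it into prostaglandin H2, and terminal synthases convert that into prostaglandin E2 (Ptges), prostacyclin (Ptgis) or prostaglandin D2 (Ptgds). Hpgd encodes the 15-hydroxyprostaglandin dehydrogenase that inactivates prostaglandins, and Ptger2, Ptger3, Ptger4 and Ptgfr encode G protein-coupled receptors for prostaglandins E2 (EP2, EP3 and EP4) and F2alpha (FP). In the uterus these signals are known for their parts in smooth muscle contraction, vascular permeability, implantation and labour.

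Depth ran from 1652841 to 2200563 estimated counts per uterus, so that 3 counts, the most that a reading of 0 leaves possible, stood for 1.37 to 1.89 CPM. Metestrus uteri were less alike (Pearson r of log2 CPM between pairs 0.897 to 0.910) than those of the other stages (0.939 to 0.957). Of 8 genes that mark the uterus, Hoxa10, Hoxa11, Esr1, Pgr, Hoxd10, Wnt7a and Msx1 had counts in every stage and Hoxa13 was at 0. Of 10 ovary markers, 8 had counts in proestrus and in estrus and 7 in metestrus and in diestrus. Their sum was 64.5 to 97.0 CPM in proestrus, 35.3 to 53.8 in estrus, 45.9 to 92.8 in metestrus and 47.5 to 55.8 in diestrus. Of 7 ciliated oviduct markers, 6 or 7 had counts in each stage. Those summed to 120.5 to 129.9 CPM in estrus and 52.9 to 97.4 CPM in the other stages. The part of such tissue in the stage differences was not tested.

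The start regions of 4 of the genes are shown: Ptgs2 and its constitutive counterpart Ptgs1, the inactivating enzyme Hpgd, and the receptor Ptger3. As given below, Ptgs2 and Hpgd both had their highest mean in estrus and Ptger3 in diestrus, and Ptgs1 was not called. Each is 250 bases before to 30 bases after the start given by RefSeq (GRCm38.p6), all on the plus strand, 5′ to 3′. Capitals mark matches, on either strand, to the motifs searched.
Ptgs2, chr1:150099781-150100060: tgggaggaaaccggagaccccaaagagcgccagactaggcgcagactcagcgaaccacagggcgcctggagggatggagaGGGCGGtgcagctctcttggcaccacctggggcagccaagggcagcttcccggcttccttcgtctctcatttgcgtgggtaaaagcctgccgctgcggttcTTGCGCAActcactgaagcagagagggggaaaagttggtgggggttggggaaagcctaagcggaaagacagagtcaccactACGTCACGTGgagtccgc
Ptgs1, chr2:36230176-36230455: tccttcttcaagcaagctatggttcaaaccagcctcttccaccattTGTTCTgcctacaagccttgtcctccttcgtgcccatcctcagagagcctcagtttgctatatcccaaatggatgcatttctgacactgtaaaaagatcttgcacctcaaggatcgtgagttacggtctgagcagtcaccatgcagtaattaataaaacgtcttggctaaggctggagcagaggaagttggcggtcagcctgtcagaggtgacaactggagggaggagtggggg
Hpgd, chr8:56294302-56294581: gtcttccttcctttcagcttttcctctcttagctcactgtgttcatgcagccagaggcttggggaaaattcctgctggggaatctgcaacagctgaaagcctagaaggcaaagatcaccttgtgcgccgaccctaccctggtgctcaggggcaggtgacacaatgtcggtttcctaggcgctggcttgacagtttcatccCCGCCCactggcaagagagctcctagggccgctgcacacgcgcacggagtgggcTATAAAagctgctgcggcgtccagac
Ptger3, chr3:157566626-157566905: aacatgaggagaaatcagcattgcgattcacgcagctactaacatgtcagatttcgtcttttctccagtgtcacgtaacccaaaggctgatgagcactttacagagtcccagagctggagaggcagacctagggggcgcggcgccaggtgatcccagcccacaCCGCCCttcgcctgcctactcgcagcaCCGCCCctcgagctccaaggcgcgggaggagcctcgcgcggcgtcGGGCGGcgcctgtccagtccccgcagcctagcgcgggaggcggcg

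The 8 motifs searched on both strands were the TATA box TATAAA, the cAMP response element core ACGTCA, the E-box CACGTG, the C/EBP palindrome TTGCGCAA, the AP-1 site TGANTCA, the GC box GGGCGG, and the half-sites AGGTCA (estrogen response element) and AGAACA (progesterone response element). Start regions of 9 of the 10 genes were in the RefSeq table, Ptgis not among them, and the shares given for all genes are over 32851 regions of 280 bases. The Ptgs2 region held the C/EBP palindrome from base -69 to -62 before the start, a match found in 0.180% of all regions. It also held the cAMP core at bases 13 to 18 (7.26% of all regions), which overlaps the E-box at bases 17 to 22 (6.79% of all regions). None of these 3 motifs was matched in the other 8 regions searched, which says only that those letters are not in these windows. Hpgd had TATAAA at bases 5 to 10 (13.1% of all regions), counted from the RefSeq start. The GENCODE start of Hpgd, 56294585, lies past the last base of this window, 56294581, so the match is upstream of that start. Ptgs1 had a progesterone half-site match, read as TGTTCT on the plus strand at bases -204 to -199, as had Ptges and Ptger2 at other positions (17.9% of all regions). The GC box was matched in 6 of the 9 regions, among them 3 times in Ptger3, and in 34.7% of all regions. Ptgfr had the estrogen half-site (15.4% of all regions) and Ptgds the AP-1 site (7.46%). These matches are descriptions of sequence, not of binding.

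Of the 10 genes, 5 changed over the cycle: Ptgs2, Ptgis and Hpgd had their highest mean in estrus, and Ptger3 and Ptgfr in diestrus (F test of edgeR's quasi-likelihood fit, p adjusted by the Benjamini-Hochberg method over 12052 genes, threshold 0.05). Ptgs1, Ptges and Ptger4 were tested and not called, and Ptgds and Ptger2 had too few counts to be tested. The 5 calls stood among 8 tested genes, and 23.2% of all 12052 genes were called by the same test. The genes were chosen with earlier results of these data known, so such shares, here and below, are a description only. The genes tested are those that passed a filter which a gene with high counts in 1 stage passes more easily, so the 5 calls are not a share of all 10.

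Ptgs2 (ENSMUSG00000032487, chromosome 1, 150100031 to 150108227, GRCm38), the inducible cyclooxygenase, was high in estrus alone. The 3 estrus uteri measured 34.6, 65.8 and 27.9 CPM (replicates 3, 4 and 5). Proestrus uteri measured 0.570, 1.08 and 1.52 CPM, metestrus uteri 0.519, 0.631 and 0 CPM, and diestrus uteri 1.99, 0 and 1.70 CPM. No estrus uterus overlapped a uterus of another stage, and 8 of the other 9 uteri held at most 3 counts of the gene, with 4 counts in diestrus replicate 3. Stage means were 42.8 ± 20.2 CPM in estrus, 1.06 ± 0.476 in proestrus, 0.383 ± 0.337 in metestrus and 1.23 ± 1.08 in diestrus.

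Over the 3 uteri of a stage, Ptgs2 had 232 counts in estrus, 6 in proestrus, 2 in metestrus and 7 in diestrus. Scaled to library size, estrus was 38.9-fold above proestrus (exact 95% counting interval 17.6 to 107), 108.5-fold above metestrus (29.7 to 901) and 34.6-fold above diestrus (16.5 to 87.1), intervals that cover counting error only. The edgeR fit gave a log2 difference of 5.23 (SE 0.57, adjusted p = 0.000220) for estrus minus proestrus. It gave -6.56 (SE 0.68, adjusted p = 0.000161) for metestrus minus estrus and -5.06 (SE 0.56, adjusted p = 5.93e-05) for diestrus minus estrus. All 3 contrasts use the same estrus uteri. The fitted log2 values rest on counts of 0 to 4 in the low stages and depend on how the fit shrinks such counts. Diestrus minus estrus was -4.45 without diestrus replicate 4, whose count was 0. Every count of the gene was assigned to the coding transcript Ptgs2-201.

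Ptgs1 (ENSMUSG00000047250, chromosome 2, 36230426 to 36252272), the constitutively expressed cyclooxygenase, did not follow Ptgs2. Proestrus uteri measured 18.3, 19.4 and 20.3 CPM, estrus uteri 19.8, 21.2 and 25.6, and metestrus uteri 22.3, 17.0 and 25.6. In diestrus, replicates 3 and 5 measured 41.9 and 45.3 CPM and replicate 4 measured 18.8. Diestrus replicates 3 and 5 lay above every other uterus and diestrus replicate 4 lay among them. The stage means were 19.3 ± 1.03, 22.2 ± 3.06, 21.7 ± 4.33 and 35.3 ± 14.4 CPM stage by stage from proestrus to diestrus (F test, edgeR adjusted p = 0.103). Proestrus minus diestrus was -0.86 on the log2 scale (SE 0.28, adjusted p = 0.0811). Without diestrus replicate 4 the gene was called, with an F test adjusted p of 0.00602 and a log2 difference of -1.18 for proestrus minus diestrus (edgeR adjusted p = 0.00712). Of its 548 counts, 99.8% were assigned to Ptgs1-204, a transcript annotated as non-coding that shares its 3' end with the coding Ptgs1-201, to which no counts were given. A 3' method cannot separate such transcripts, and the gene sum is used here.

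Ptges (ENSMUSG00000050737, chromosome 2, 30889471 to 30929863), the microsomal prostaglandin E synthase that is often induced together with Ptgs2, measured 17.1, 10.2 and 10.7 CPM in proestrus and 12.4, 14.9 and 20.2 in estrus. Metestrus uteri measured 5.71, 12.0 and 7.75 CPM and diestrus uteri 12.0, 16.3 and 13.6. Every metestrus uterus lay below every estrus uterus (highest 12.0 against lowest 12.4 CPM), and the other pairs of stages overlapped. Metestrus minus estrus was also the widest contrast, at -0.92 on the log2 scale (SE 0.33, edgeR adjusted p = 0.105), and the F test gave an adjusted p of 0.186. Estrus minus proestrus was 0.34 (SE 0.31, edgeR adjusted p = 0.507).

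Ptgis (ENSMUSG00000017969, chromosome 2, 167191805 to 167240604), the prostacyclin synthase, rose in estrus. The estrus uteri measured 175, 169 and 151 CPM. Proestrus uteri measured 74.2, 82.5 and 112 CPM, metestrus uteri 90.2, 78.9 and 109, and diestrus uteri 79.8, 54.9 and 75.3. Every estrus uterus lay above every other uterus, and the other 3 stages overlapped.

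Ptgis averaged 165 ± 12.5 CPM in estrus, 89.4 ± 19.7 in proestrus, 92.6 ± 14.9 in metestrus and 70.0 ± 13.3 in diestrus (F test, edgeR adjusted p = 0.00157). Estrus was 1.85-fold above proestrus (log2 difference 0.88, SE 0.18, adjusted p = 0.00603) and 2.36-fold above diestrus (diestrus minus estrus -1.24, SE 0.19, adjusted p = 0.000499). Metestrus minus estrus was -0.83 (SE 0.18, edgeR adjusted p = 0.0168). That last call was lost without estrus replicate 3 (adjusted p = 0.0538), estrus replicate 4 (0.0650) or metestrus replicate 6 (0.0701). Neighbouring stages among the lower 3 were not called apart, with adjusted p of 0.919 between metestrus and proestrus and 0.294 between proestrus and diestrus. Of 2297 counts, 99.9% lay on the coding transcript Ptgis-201. The gene overlaps 1110018N20Rik, annotated as a processed transcript, and the antisense Gm14291, both on the opposite strand. Of the 2562 words of 31 bases in its transcripts, 0 were shared with another gene on either strand. The use of strand in counting is not given in the sources used here.

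Ptgis is expressed by smooth muscle and endothelium. Summed over 9 of 9 smooth muscle markers, levels lay between 8985 and 11552 CPM in estrus, 6671 and 9363 in proestrus, 5900 and 8106 in metestrus, and 6800 and 7200 in diestrus, with no marker at 0. The sum over 8 of 8 endothelial markers ran from 1565 to 2108 CPM in estrus and from 1356 to 1904 over the other stages. Endometrial stroma markers, 10 of 10 with counts, summed to 4680 to 5388 CPM in estrus and 3611 to 4011 in proestrus. In metestrus they summed to 3971 to 6195 CPM, and in diestrus to 3565 to 4157. The part of these cell types in the Ptgis difference was not tested.

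Ptgds (ENSMUSG00000015090, chromosome 2, 25466709 to 25470046), a prostaglandin D2 synthase, had 110 counts in all and was below the filter. It measured 2.28, 2.70 and 2.54 CPM in proestrus, 3.09, 4.00 and 2.29 in estrus, and 4.99, 1.48 and 9.62 in diestrus. In metestrus it measured 23.9, 1.26 and 0.596 CPM. Metestrus replicate 5 alone carried 46 of the counts, and the mean of the other metestrus uteri was 0.929 CPM, under the level of 3 counts.

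**Figure D1:**
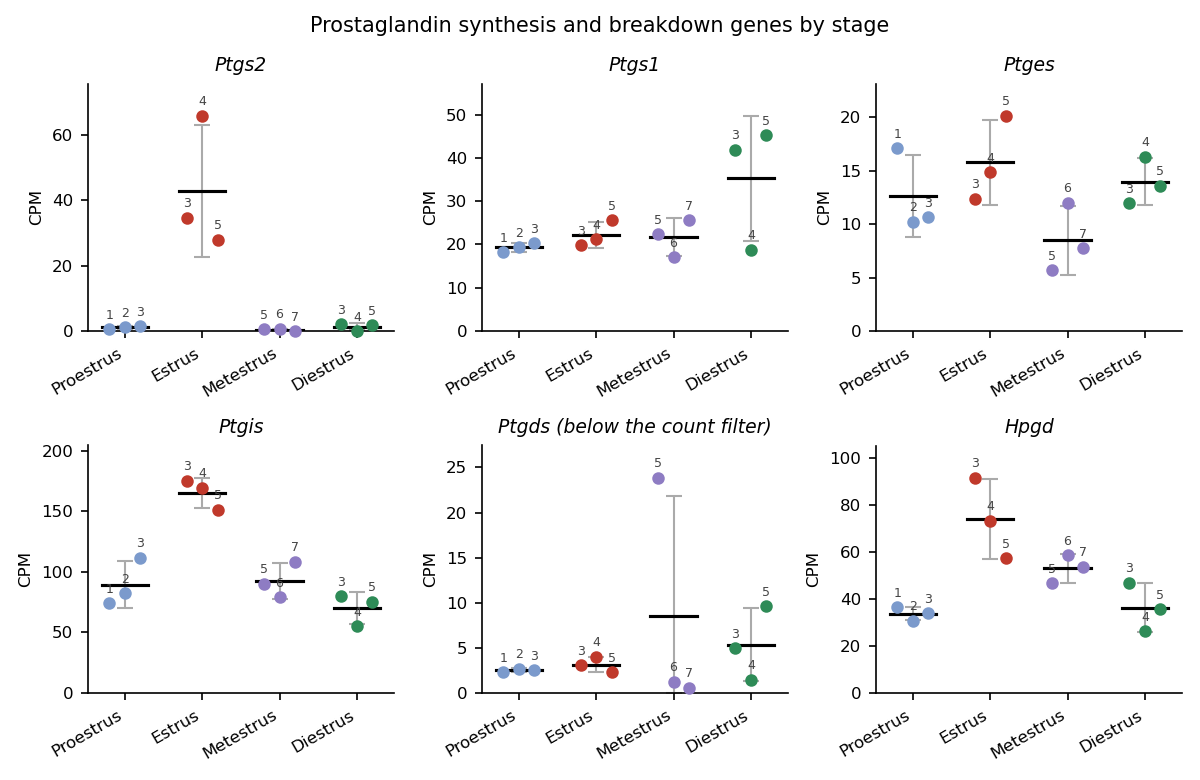
Level of 6 synthesis and breakdown genes in CPM (y axis, linear, from 0) in each uterus (points, labelled with the replicate number) by stage (x axis), with the mean (black line) and SD (grey bar, drawn no lower than 0) of 3 uteri. Ptgs2, Ptgis and Hpgd have their highest means in estrus (42.8, 165 and 74.0 CPM), 2 of the 3 diestrus points of Ptgs1 lie above 40 CPM, and the metestrus mean of Ptgds is set by replicate 5.

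Hpgd (ENSMUSG00000031613, chromosome 8, 56294585 to 56321043), the enzyme of prostaglandin breakdown, also rose in estrus. The estrus uteri measured 91.6, 73.2 and 57.2 CPM and the proestrus uteri 36.5, 30.7 and 34.0. Metestrus uteri measured 46.7, 58.7 and 53.7 CPM and diestrus uteri 46.9, 26.2 and 35.7. Estrus lay above proestrus and diestrus with no overlap, while metestrus replicate 6 exceeded estrus replicate 5.

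Hpgd averaged 33.7 ± 2.90, 74.0 ± 17.2, 53.0 ± 6.04 and 36.2 ± 10.3 CPM stage by stage from proestrus to diestrus (F test, edgeR adjusted p = 0.00489). Estrus was 2.19-fold above proestrus (log2 difference 1.13, SE 0.21, adjusted p = 0.00395) and 2.04-fold above diestrus (diestrus minus estrus -1.02, SE 0.21, adjusted p = 0.00406). Neither neighbour of metestrus in the order of levels was called apart from it (metestrus minus estrus -0.48, edgeR adjusted p = 0.182; diestrus minus metestrus -0.55, adjusted p = 0.349). All 1072 counts were assigned to the single transcript in the files, Hpgd-201.

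Macrophage markers were also highest in estrus on average, beside Ptgs2 and Hpgd. The sum over 10 of 10 macrophage markers lay between 831 and 905 CPM in estrus, 333 and 395 in proestrus, 490 and 853 in metestrus, and 486 and 693 in diestrus, with no marker at 0 in any stage. The sum over the 10 neutrophil markers was between 39.0 and 89.8 CPM in estrus, 13.5 and 37.6 in proestrus, 12.5 and 27.8 in metestrus, and 17.3 and 71.9 in diestrus. Of those, 8 had counts in proestrus (Ngp and Mmp8 at 0), 8 in estrus and 8 in metestrus (Ngp and Camp at 0), and 9 in diestrus (Ly6g at 0). In estrus replicates 3, 4 and 5 the neutrophil sums were 39.0, 89.8 and 42.1 CPM, and Ptgs2 was at 34.6, 65.8 and 27.9 CPM. In diestrus replicates 3, 4 and 5 the sums were 58.3, 17.3 and 71.9 CPM, and Ptgs2 was at 1.99, 0 and 1.70 CPM. The epithelial sum was taken over 12 markers, with Prss28 at 0 outside metestrus. It was 1352 to 1623 CPM in estrus, 1277 to 1699 in proestrus, 831 to 1464 in metestrus and 671 to 795 in diestrus. The part of these cells in the Ptgs2 and Hpgd differences was not tested.

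Of the receptor genes, Ptger3 and Ptgfr changed and Ptger4 did not pass the test, while 23.2% of all genes were called by the same test. Ptger3 (ENSMUSG00000040016, chromosome 3, 157566892 to 157645888) encodes EP3, which couples mainly to inhibition of cAMP and is known in myometrium for contraction. Diestrus uteri measured 38.9, 47.0 and 80.9 CPM. Proestrus uteri measured 12.5, 19.4 and 18.3 CPM, estrus uteri 42.7, 17.2 and 26.6, and metestrus uteri 15.0, 17.0 and 27.4. Diestrus lay above proestrus and metestrus with no overlap and overlapped estrus only through estrus replicate 3.

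Ptger3 averaged 16.7 ± 3.68, 28.8 ± 12.9, 19.8 ± 6.65 and 55.6 ± 22.3 CPM stage by stage from proestrus to diestrus (F test, edgeR adjusted p = 0.00827). Diestrus was 3.32-fold above proestrus (proestrus minus diestrus -1.72, SE 0.35, adjusted p = 0.00826). Diestrus minus estrus was 0.95 (SE 0.33) and just missed the threshold in edgeR (adjusted p = 0.0556). It was called with limma-voom (adjusted p = 0.0437) and without estrus replicate 3 (1.32, edgeR adjusted p = 0.0227). Diestrus minus metestrus was 1.48 (SE 0.35) with an adjusted p of 0.102 in edgeR and 0.0189 in DESeq2. Of 669 counts, 84.9% lay on the coding transcript Ptger3-201 and 14.5% on Ptger3-203, which is annotated with a retained intron. The splice forms that differ in the tail of the receptor could not be compared, since only 0.558% of counts lay on the other coding transcript.

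Ptgfr (ENSMUSG00000028036, chromosome 3, 151796502 to 151837630) encodes FP, the prostaglandin F2alpha receptor, which raises calcium and contracts the myometrium. Proestrus uteri measured 7.99, 3.23 and 3.04 CPM and estrus uteri 9.90, 4.58 and 2.75. Metestrus uteri measured 22.3, 15.8 and 12.5 CPM and diestrus uteri 12.5, 30.2 and 39.6. Every metestrus and diestrus uterus lay above every proestrus and estrus uterus.

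Ptgfr averaged 4.76 ± 2.80 and 5.74 ± 3.71 CPM in proestrus and estrus, against 16.9 ± 4.98 and 27.4 ± 13.8 CPM in metestrus and diestrus (F test, edgeR adjusted p = 0.00560). Diestrus was 5.76-fold above proestrus (proestrus minus diestrus -2.52, SE 0.52, adjusted p = 0.00811) and 4.78-fold above estrus (log2 difference 2.29, SE 0.51, adjusted p = 0.00575). Both calls were kept when any 1 uterus was left out. Without estrus replicate 3 the estrus mean was 3.66 CPM and diestrus minus estrus was 2.90. At the other end, diestrus minus estrus was 1.92 without estrus replicate 5. Without proestrus replicate 1 the proestrus mean was 3.14 CPM and proestrus minus diestrus was -3.09. That contrast was -2.17 without diestrus replicate 5. Metestrus was not called apart from proestrus (1.84, SE 0.54, adjusted p = 0.0711) or from estrus (1.61, SE 0.53, adjusted p = 0.0821) in edgeR, although the uteri did not overlap. Metestrus and diestrus overlapped (0.68, SE 0.44, edgeR adjusted p = 0.596). All of its 301 counts lay on the coding transcript Ptgfr-201.

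Ptger4 (ENSMUSG00000039942, chromosome 15, 5206661 to 5244187), which encodes the cAMP-raising receptor EP4, measured 20.0, 31.8 and 13.7 CPM in proestrus, 23.5, 18.3 and 26.1 in estrus, and 20.4, 28.7 and 24.9 in diestrus. In metestrus it measured 18.2, 19.6 and 50.7 CPM, with replicate 7 above every other uterus. No stage was called apart from another (F test, edgeR adjusted p = 0.767), and the fitted differences ran from -0.25 (SE 0.37) to 0.43 (SE 0.38) on the log2 scale. Its level may be uncertain, because 15.2% of its 31-base words are shared with the overlapping opposite-strand genes Ttc33 and Gm15937. That share is over all its transcripts, and 99.5% of its counts were assigned to Ptger4-201. Whether the shared words lie in the 3' part that was read was not examined.

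Ptger2 (ENSMUSG00000037759, chromosome 14, 44988195 to 45003820), which encodes the other cAMP-raising receptor EP2, had 105 counts in all and was below the filter. It measured 0, 2.70 and 1.01 CPM in proestrus, 3.09, 1.72 and 0.916 in estrus, and 5.98, 3.46 and 4.53 in diestrus. In metestrus it measured 1.56, 1.89 and 32.8 CPM, so that replicate 7 carried 55 of the counts and the mean of the other metestrus uteri was 1.72 CPM. Every diestrus uterus lay above every estrus and proestrus uterus. With no filter on low counts the F test called the gene (edgeR adjusted p = 0.00857), and it was also tested and called without metestrus replicate 5 (0.0239) or 6 (0.0364), fits that keep replicate 7. Without replicate 7 it did not pass the filter. Metestrus replicate 7 therefore held the highest value of Ptger2 and of Ptger4, and metestrus replicate 5 that of Ptgds.

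**Figure D2:**
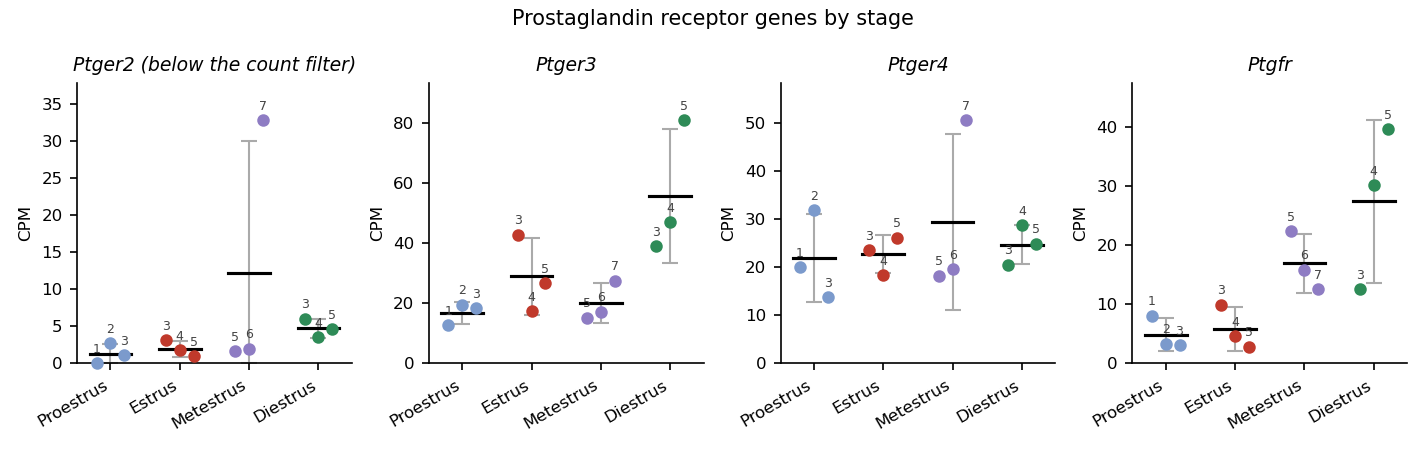
Level of the 4 receptor genes in CPM (y axis, linear, from 0) in each uterus (points, labelled with the replicate number) by stage (x axis), with the mean (black line) and SD (grey bar, drawn no lower than 0) of 3 uteri. Ptger3 and Ptgfr are highest in diestrus (55.6 and 27.4 CPM), and metestrus replicate 7 stands above the other uteri for Ptger2 (32.8 CPM) and Ptger4 (50.7 CPM).

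From proestrus to estrus, Ptgs2, Ptgis and Hpgd rose (3 of 8, against 9.67% of all genes higher and 7.46% lower in edgeR), with a median log2 difference of 0.55 over the 8 genes, 0.34 without Ptgs2, and 0.02 over all genes. From estrus to metestrus, Ptgs2 and Ptgis fell (2 of 8, against 4.73% of all genes lower and 2.83% higher), with medians of -0.50 over the 8 and 0.01 over all genes. Between estrus and diestrus, Ptgs2, Ptgis and Hpgd were lower in diestrus (3 of 8, against 13.0% of all genes) and Ptgfr was higher (1 of 8, against 9.72%). The median of that contrast was -0.04 over the 8 genes, and 0.12 without Ptgs2.

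From diestrus to proestrus, which closes the cycle, Ptger3 and Ptgfr fell (2 of 8, against 3.91% of all genes lower and 4.62% higher in proestrus), with a median of -0.17 over the 8 genes. From metestrus to diestrus edgeR called 0 of the 8, as it called only 0.224% of all genes. The median was 0.69 over the 8 genes, 0.68 without Ptgs2, and -0.02 over all genes. At an unadjusted p under 0.05 there were 5 of the 8, against 11.3% of all genes. Of these, Ptgs1, Ptges and Ptger3 were higher in diestrus, and Ptgis and Hpgd were lower. At the adjusted threshold DESeq2 called 1 (Ptger3) and limma-voom 0. Between metestrus and proestrus edgeR called 0 of the 8, against 4.31% of all genes in either direction. At an unadjusted p under 0.05 there were 2 (Hpgd and Ptgfr), against 21.0% of all genes, and DESeq2 called 1 (Ptgfr) and limma-voom 0. Contrasts that name the same stage share its 3 uteri, and the values above are not independent of one another.

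**Figure D3:**
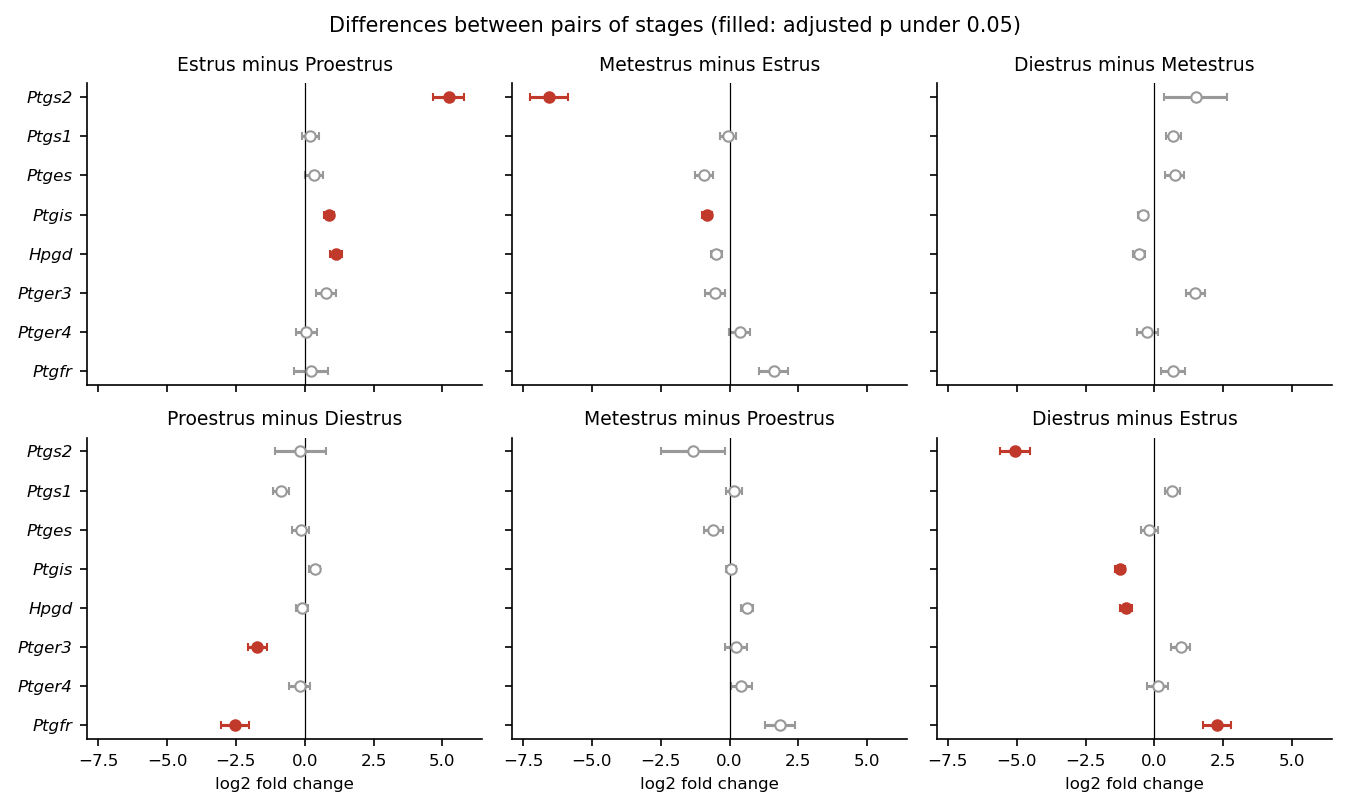
Log2 fold change (x axis) with its SE (bars) of the 8 tested genes (y axis) for each of 6 pairs of stages, from edgeR fitted to all 12 uteri; filled red points have an adjusted p under 0.05. Ptgs2 is the farthest from 0 in all 3 contrasts with estrus (5.23, -6.56 and -5.06), and the receptor calls appear in contrasts with diestrus.

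The genes whose course over the 12 uteri was most like that of each changing gene are given as a description, with Pearson r of log2 CPM. All come from the same libraries, and r partly reflects the shared stages. For Ptgs2 they were Tgm2 (r = 0.964), Cxcl1 (0.964), Cxcl2 (0.962), Sprr2d (0.957) and Il1a (0.955). Cxcl1 and Cxcl2 encode chemokines that attract neutrophils, and Il1a encodes the cytokine interleukin-1 alpha. Their estrus means were 12.3, 20.4 and 9.15 CPM, and their means in the other stages were at most 0.383 CPM. Tgm2, a transglutaminase, averaged 478 CPM in estrus against 232 to 244 CPM elsewhere.

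For Ptgis the most alike were Tagln (r = 0.983), Dst (0.960), Ctsc (0.947), Grik2 (0.943) and Kcnmb1 (0.942), all highest in estrus. Tagln encodes the smooth muscle protein transgelin and averaged 1977 CPM in estrus against 1008 in proestrus, 1112 in metestrus and 793 in diestrus. Kcnmb1 encodes a potassium channel subunit of smooth muscle and averaged 98.8 CPM in estrus and 34.2 in diestrus. For Hpgd they were Pld4 (0.918), Rab3gap2 (0.915), Tec (0.906), Adm (0.903) and Inpp4a (0.893). Adm, which encodes the vasodilator adrenomedullin, averaged 24.6 CPM in estrus and 8.41 in proestrus.

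For Ptger3 the most alike were Crybg3 (0.891), Fkbp5 (0.891), B230118H07Rik (0.878), Lrrcc1 (0.868) and Enkur (0.861). Fkbp5, a co-chaperone of steroid receptors that progestins and glucocorticoids induce, averaged 13.9 CPM in diestrus and 4.43 in proestrus. For Ptgfr they were Tln2 (0.909), Serpine2 (0.899), Usp2 (0.894), Bcorl1 (0.894) and 5730409E04Rik (0.890). Serpine2, a protease inhibitor, averaged 137 CPM in diestrus, 99.9 in metestrus, 43.9 in proestrus and 37.7 in estrus. Among the genes themselves, r over the 12 uteri was 0.860 between Ptgs2 and Ptgis, 0.805 between Ptgis and Hpgd and 0.535 between Ptger3 and Ptgfr, and 0.00144 between Ptgs2 and Ptgs1.

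Around these genes, 58 others of prostanoid and neighbouring eicosanoid pathways were listed, of which 35 were tested and 12 were called in the F test, against 23.2% of all genes. The 35 had passed the same filter, which high counts in a single stage make easier to pass. Slco4a1, for example, had 70 counts in estrus against 19 in proestrus, 6 in metestrus and 4 in diestrus. The 12 calls are therefore not a share of all 58, and the same limit holds for the parts of this list given below. Of the 12, 6 were highest in estrus (Abcc1, Alox5ap, Cbr2, Ltc4s, Pla2g12a and Slco4a1), 4 in diestrus (Abcc4, Cbr3, Pla2g10 and Ptges3) and 2 in proestrus (Akr1b3 and Akr1c14). In estrus against proestrus, 3 of the 35 were higher and 5 lower (9.67% and 7.46% of all genes), in metestrus against estrus 2 higher and 4 lower (2.83% and 4.73%), and in diestrus against estrus 6 higher and 6 lower (9.72% and 13.0%). In proestrus against diestrus, 3 were higher and 2 lower (4.62% and 3.91% of all genes), and metestrus and proestrus differed in 2 (4.31%). Between metestrus and diestrus edgeR, DESeq2 and limma-voom each called 0 of the 35 (edgeR called 0.224% of all genes), while 6 of them had a raw p under 0.05 in edgeR. Medians over the 35, on the log2 scale, lay between -0.08 and 0.07 in all 6 contrasts.

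Among the phospholipases that supply arachidonic acid, Pla2g12a rose in estrus and Pla2g10 was high in diestrus alone. Pla2g12a measured 50.1, 42.3 and 45.3 CPM in estrus and at most 32.3 CPM in any other uterus (F test, edgeR adjusted p = 0.00433). Estrus was 1.87-fold above proestrus (edgeR adjusted p = 0.0151), a call lost without proestrus replicate 1 or 3 or estrus replicate 3, with an adjusted p of up to 0.0712. Pla2g10 measured 10.97, 17.8 and 6.23 CPM in diestrus and at most 1.79 CPM in any other uterus. Its 69 diestrus counts stood against 1 in proestrus, 2 in estrus and 4 in metestrus, and the ratio of diestrus to estrus was 33.0 (exact 95% counting interval 8.80 to 278). Diestrus was called apart from estrus (edgeR adjusted p = 0.00129) and proestrus (0.00217) and not from metestrus (0.0617). The cytosolic phospholipase gene Pla2g4a measured 33.2 to 43.6 CPM in stage means and was not called (F test, edgeR adjusted p = 0.563).

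Other synthase genes moved in several directions. The carbonyl reductase gene Cbr2 averaged 631 ± 176 and 655 ± 74.0 CPM in proestrus and estrus against 114 ± 91.6 and 95.5 ± 34.4 CPM in metestrus and diestrus (F test, edgeR adjusted p = 0.000826), though 15.0% of its 31-base words are shared with Gm11771. Metestrus minus estrus was -2.51 for Cbr2, -3.36 without metestrus replicate 5 and -2.06 without metestrus replicate 7. Akr1b3, an aldose reductase that can make prostaglandin F2alpha, averaged 94.9 ± 7.24 CPM in proestrus and 49.98 ± 5.60 in estrus (log2 difference -0.93, edgeR adjusted p = 0.00355). Akr1c14 was 80.8 ± 3.29 CPM in proestrus and 18.9 ± 14.4 in diestrus (log2 difference 2.08, edgeR adjusted p = 0.00233). That difference became 2.90 without diestrus replicate 3 and 1.74 without diestrus replicate 5. Ptges3, whose product is also a chaperone, was 211 ± 10.6 CPM in estrus and 303 to 330 CPM in the other stage means (F test, edgeR adjusted p = 0.00753). Akr1b3 and Ptges3 share 11.3% and 20.9% of their words with other genes. Hpgds, the prostaglandin D synthase of haematopoietic cells, was 27.0 ± 3.58 CPM in estrus and 12.2 ± 3.28 in diestrus (edgeR adjusted p = 0.0248), a call lost without estrus replicate 4 or 5 or diestrus replicate 4 or 5. With counts scaled from the deposited TPM, the log2 difference of Hpgds moved from -1.15 to -0.57 (adjusted p = 0.477).

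Of 8 tested genes of transport and breakdown 3 were called in the F test, and of 6 of the leukotriene branch 2 were, against 23.2% of all genes. Slco2a1, which carries prostaglandins into cells for breakdown, was not among those called and measured 15.5, 15.4 and 16.9 CPM in estrus and 33.2, 30.9 and 33.4 CPM in metestrus. Metestrus minus estrus was 1.02 on the log2 scale (SE 0.27, edgeR adjusted p = 0.0392), a call lost without any 1 of the 6 estrus and metestrus uteri (adjusted p from 0.0536 to 0.103). Abcc4, which exports prostaglandins, averaged 33.1 ± 2.69 CPM in diestrus and 15.8 ± 4.87 in estrus (edgeR adjusted p = 0.0101), with an adjusted p of 0.276 when counts were scaled from the deposited TPM. Ltc4s, the leukotriene C4 synthase, averaged 12.3 ± 2.07 CPM in estrus and 1.44 ± 1.23 in diestrus, where 69 counts stood against 8 (edgeR adjusted p = 0.000905). The log2 difference of -3.08 became -3.93 without diestrus replicate 5 and -2.65 without diestrus replicate 4. Alox5ap, the activating protein of 5-lipoxygenase, fell from 29.6 ± 5.96 CPM in estrus to 12.7 ± 2.51 in diestrus (edgeR adjusted p = 0.00193). Estrus minus proestrus was 0.02 for Alox5ap (edgeR adjusted p = 0.969), 1.91 for Ltc4s (0.0116) and 1.00 for Hpgds (0.0537). The Ltc4s call was lost without proestrus replicate 1 or 3 or estrus replicate 5. Proestrus minus diestrus was 1.21 for Alox5ap (edgeR adjusted p = 0.00485), 1.17 for Ltc4s (0.265) and 0.15 for Hpgds (0.869). Hpgds, Ltc4s and Alox5ap are genes of myeloid and mast cells. Their levels are read beside the macrophage sums given above, which were lowest in proestrus. The 9 mast cell markers, of which 8 had counts in proestrus and in diestrus with Ms4a2 at 0, had another course. Their sum was 31.9 to 39.1 CPM in proestrus, 51.3 to 71.4 in estrus, 70.5 to 126 in metestrus and 111 to 162 in diestrus. Hdc, which uterine epithelium can also express, made up 64.5 to 92.4 CPM of the diestrus sums. The part of these cells was not tested.

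**Figure D4:**
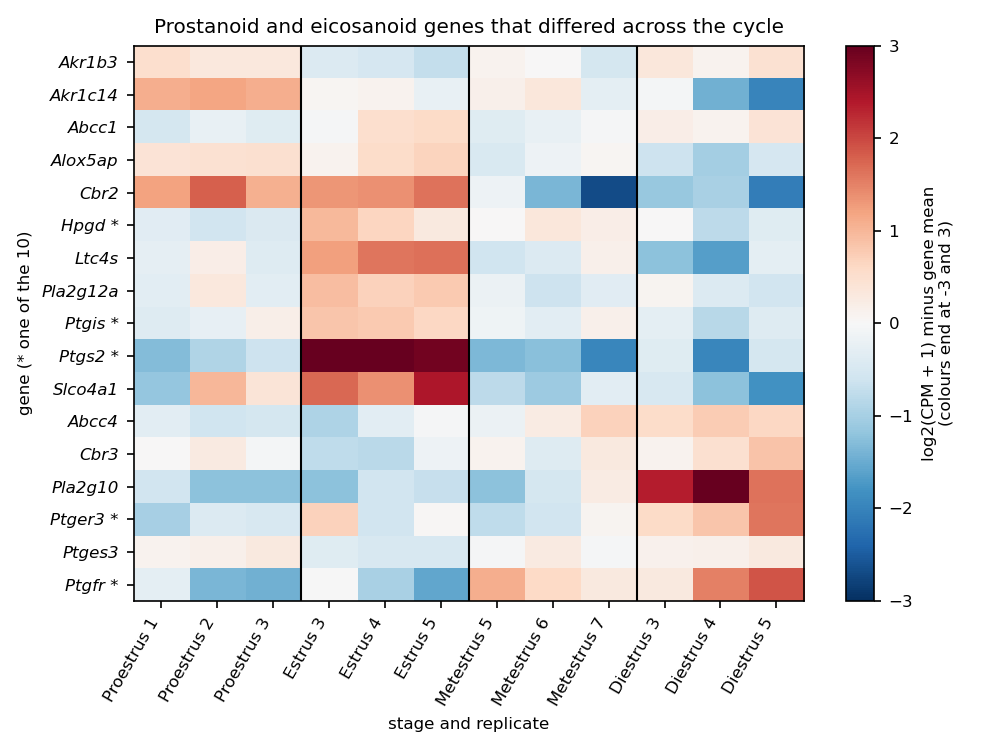
Level of the 17 genes called in the F test, the 5 described first (marked with an asterisk) and 12 others of the pathways, as log2(CPM + 1) minus the gene's mean over the 12 uteri (colour, ending at -3 and 3), with uteri in columns by stage and genes in rows ordered by the stage of their highest mean. The upper rows peak in proestrus or estrus, with Ptgs2 the strongest in estrus, and the lower rows, with Ptger3 and Ptgfr, peak in diestrus.

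Among other genes of the list, the prostacyclin receptor gene Ptgir was below the filter, with 2.56 to 4.56 CPM in stage means. The thromboxane synthase gene Tbxas1 was also below it, with 3.00 to 4.32 CPM.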

How the data were processed

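Whole-uterus RNA of 12 mice was profiled by 3' TagSeq without molecular identifiers. FastQC, kallisto and DESeq2 are named in the submitters' processing notes, but the transcript set and the use of strand are not given in the sources used here. The authors deposited estimated counts and TPM per transcript, per the file headers. Estimated counts were summed to genes with GENCODE M21 (GRCm38), to which 97.7% of 119414 transcripts matched (the unmatched held 0.619% to 0.774% of counts), and rounded to whole numbers. With edgeR 4.0.16 (R 4.3.3), genes with low counts were removed (filterByExpr by stage, 12052 left), libraries scaled by TMM, and a quasi-likelihood model with 1 coefficient per stage fitted to all 12 samples. The F test and 6 two-sided contrasts had p-values adjusted over all 12052 genes (Benjamini-Hochberg, threshold 0.05). The code was tested on simulated data. Alternatives were DESeq2 1.42.0, limma-voom (limma 3.58.1), other scalings and filters, counts scaled from the deposited TPM, a replicate block, and fits without each library or on 6 samples.

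The genes, lists and tests were chosen with earlier results of these data known. Of the 58 pathway genes, those called in any test and up to 10 others could be named. For each gene called in the F test, the 5 tested genes with the highest Pearson r of log2 CPM (prior count 2) were named. Words of 31 bases shared between transcripts of different genes marked uncertain counts. The labels name no batch. The p-values test differences between stages against the spread between uteri within stages, as the fit estimates it. A result of the pathway list is not reported here.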

Additional observations from a re-analysis of the deposited data

How the results depend on the processing

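No called contrast above reversed direction under any alternative. For the single genes' called contrasts, 344 values under other settings, the replicate block among them, stayed past the threshold and 37 did not. Without single libraries 461 did and 67 did not. Of the counts of the 10 genes called, the F test count of 5 became 3 with a mean of at least 50 counts, where fewer genes were tested and the 12 pathway calls became 7. It was 4 with counts scaled from TPM and 7 with no low-count filter, and ranged from 5 to 6 without single libraries. The 2 calls of metestrus minus estrus became 4 with no low-count filter and 1 with a mean of at least 50 counts. They ranged from 1 to 3 without single libraries. The 0 calls of diestrus minus metestrus became 1 with DESeq2 and 1 with no filter. The 0 calls of metestrus minus proestrus became 1 with DESeq2 and 2 with no filter, and ranged from 0 to 1 without single libraries. The 2 calls of proestrus minus diestrus became 3 with no filter and ranged from 2 to 3 without single libraries. They became 1 with a mean of at least 50 counts and 1 with counts scaled from TPM, where Ptgfr did not pass the filter. Other causes were not tested.

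Replicate numbers were not taken to pair the uteri. Estrus and diestrus, the only stages with more than 1 number in common, share the numbers 3, 4 and 5, and the deviations of same-numbered uteri correlated at -0.04, 0.01 and -0.02. With the number as a block over all 12 samples, Ptgis lost estrus minus proestrus (adjusted p = 0.144) and metestrus minus estrus (0.164), Ptger3 lost proestrus minus diestrus (0.154) and Ptgfr lost it too (0.213). Diestrus minus estrus, which keeps 3 uteri of each stage under the block, stayed called there for Ptgs2, Ptgis, Hpgd and Ptgfr. Ptgs2 was not tested with a mean of at least 50 counts. Ptgs1 passed the F test with no low-count filter (adjusted p = 0.0469). Depth limits Ptgs2 outside estrus, at 0 to 4 counts per library, and Ptgds and Ptger2, at 110 and 105 counts over all 12.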
